A study of Mus musculus with 8 samples.

Results

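Branched-chain amino acid (BCAA) catabolism was examined as 10 genes given by name: *Bcat2*, *Bckdha*, *Bckdhb*, *Bckdk*, *Dbt*, *Ppm1k*, *Ivd*, *Mccc1*, *Hibch* and *Hibadh*. All 10 were found among the 32390 rows of the count table, each on a single row, and all 10 were among the 12725 rows with enough counts to be tested. Gastrocnemius muscle came from 21-month-old mice that all carried floxed *Nox4* alleles. The 4 control mice were *Nox4* fl/fl, and the 4 NOX4-deficient mice (MckCre:*Nox4* fl/fl, labelled KO) also carried the MckCre transgene. The creatine kinase promoter that drives this recombinase works in differentiated striated muscle, the heart included, and cells of the tissue without Cre keep their *Nox4* alleles. The mice were males on standard chow, and poly(A) RNA of the whole muscle was sequenced from 1 library per mouse.

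Leucine, isoleucine and valine are the BCAAs, and skeletal muscle is a main site of the opening steps of their breakdown. The mitochondrial aminotransferase BCAT2 moves the amino group to 2-oxoglutarate, and the resulting keto acids are decarboxylated by the branched-chain keto acid dehydrogenase (BCKDH) complex in the mitochondrial matrix. BCKDH kinase (BCKDK) switches this complex off by phosphorylation, and the phosphatase PPM1K switches it on again. After that step leucine, valine and isoleucine follow separate routes that end in acetyl-CoA, acetoacetate or succinyl-CoA.

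None of the 10 genes differed between genotypes beyond the spread between mice. In the edgeR quasi-likelihood fit, with p-values adjusted over all rows by the Benjamini-Hochberg method, 0 of the 10 were called (adjusted p below 0.05 together with a log2 fold change of more than 0.5 in either direction), and 0 had an adjusted p-value under 0.05 at any fold change. At an unadjusted p-value under 0.05 the count was also 0 in edgeR, DESeq2 and pydeseq2, with a smallest edgeR p of 0.0841 for *Ppm1k*. Over all rows tested, 2.68% were called higher and 3.48% lower in NOX4-deficient muscle, 7.75% had an adjusted p-value under 0.05, and 23.2% an unadjusted p-value under 0.05. In none of the 10 genes did the NOX4-deficient libraries lie all above or all below the control libraries, which was the case for 7.2% and 8.97% of all rows. The log2 fold changes (NOX4-deficient over control) ran from -0.23 for *Bckdha* to 0.26 for *Ppm1k*, with 6 below and 4 above 0. Their median was -0.05, beside 0.01 over all rows.

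The 95% intervals, taken gene by gene and not adjusted for the number of rows, give the range of differences each estimate allows. They are not the smallest difference that a call could have picked up. All 10 intervals contained 0, and 7 of the 10 lay wholly within 0.5 on the log2 scale in either direction, that is, within 1.41-fold. The intervals of *Bckdha*, *Dbt* and *Ppm1k* reached past that bound on 1 side. The outermost limits over the 10 genes were a decrease to 31.2% below control (*Dbt*) and an increase to 48.5% above it (*Ppm1k*). The standard errors ran from 0.10 to 0.18.

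The libraries held 16350548 to 19804661 counts on genes, and the 10 genes had between 183 and 3298 counts in each library. *Nox4* itself had 35 to 85 counts in control and 29 to 43 counts in NOX4-deficient libraries, with a log2 fold change of -0.65 (SE 0.29, edgeR adjusted p = 0.207), which did not pass the test. Without control replicate 1 the log2 fold change was -0.36 (edgeR adjusted p = 0.489), and the genotypes overlapped, with control replicate 3 (1.87 CPM, counts per 1000000 counts of a library) below 3 of the 4 NOX4-deficient libraries (2.17 to 2.21 CPM). An exact two-sided permutation test of its CPM gave p = 0.2, where 4 mice against 4 allow no p below 0.0286. The adult muscle fiber markers were abundant in every library, at a summed 145058 to 177097 CPM in controls and 155409 to 179056 CPM in NOX4-deficient muscle. Replicates 1 and 3 of both genotypes lay on 1 side of the second principal component (18.7% of the variance) and replicates 2 and 4 on the other. Fewer cells of a type and less RNA per cell cannot be told apart in whole muscle.

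*Bcat2*, which encodes the aminotransferase of the opening step, had 41.8, 46.6, 49.98 and 55.7 CPM in the control replicates 1 to 4 and 67.8, 46.8, 51.3 and 52.7 CPM in NOX4-deficient replicates 1 to 4 (CPM were scaled by edgeR's TMM method throughout). The highest value, in NOX4-deficient replicate 1, lay above every control library, and the other libraries of that genotype lay within the control range. The means were 48.5 ± 5.85 and 54.7 ± 9.12 CPM (SD, n = 4 each), a log2 fold change of 0.17 (95% interval -0.11 to 0.46, edgeR adjusted p = 0.477). Without NOX4-deficient replicate 1 the log2 fold change was 0.062, and without control replicate 1 it was 0.10. Of the 2489 exon bases of *Bcat2*, 247 are shared with *0610005C13Rik* on the opposite strand. In unstranded libraries, reads that lie within the shared stretch cannot be assigned to 1 gene of the pair. *Bcat1*, the cytosolic aminotransferase, had 1 to 8 counts in each library and did not pass the filter on low counts.

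**Figure D1:**
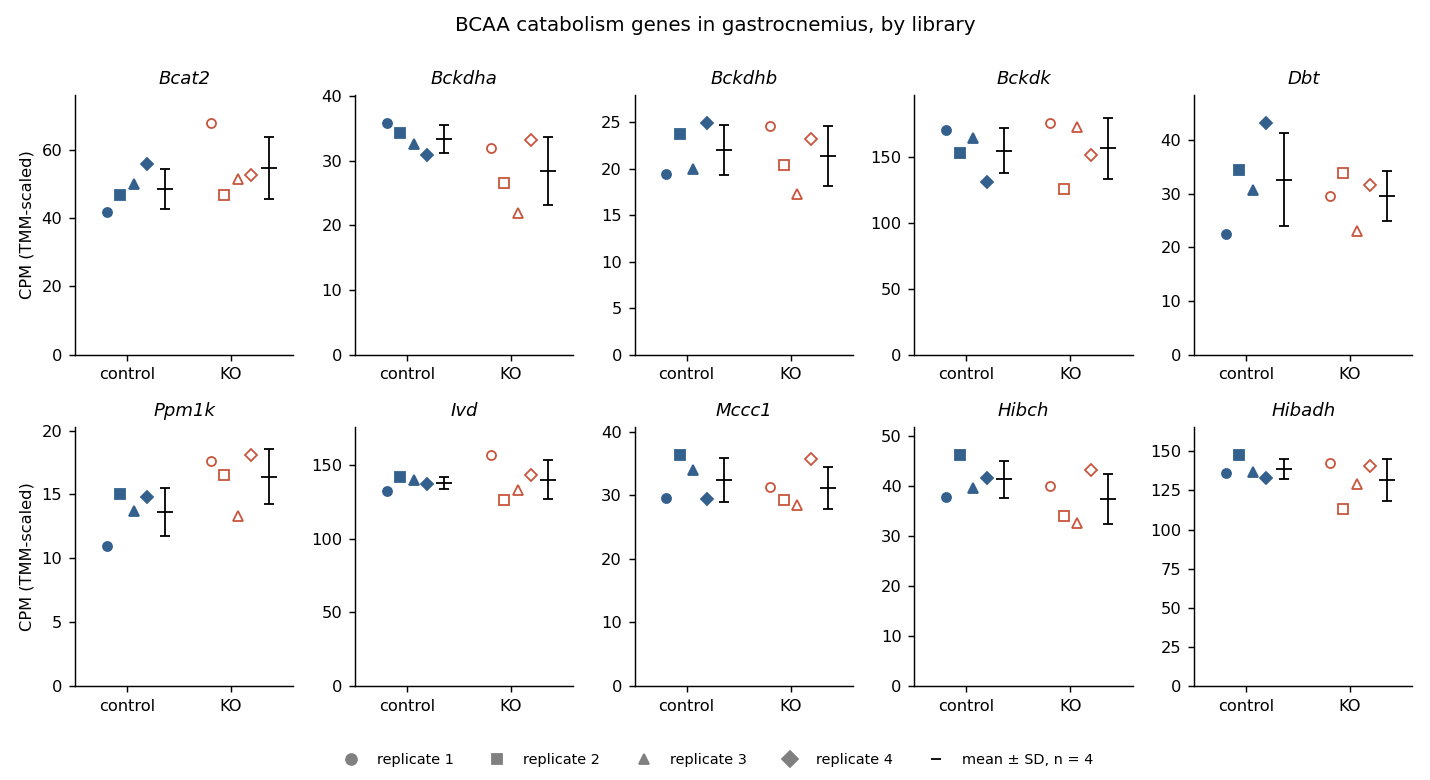
TMM-scaled CPM (vertical axes, each from 0) of the 10 BCAA catabolism genes in each library of control and NOX4-deficient (KO) muscle, with marker shape for the replicate number and bars for the mean ± SD of 4 mice. The values of the genotypes overlap in all 10 panels, and NOX4-deficient replicate 1 has the highest *Bcat2*, at 67.8 CPM.

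*Bckdha* and *Bckdhb* encode the alpha and beta subunits of the BCKDH decarboxylase. *Bckdha* stood at 35.8, 34.3, 32.5 and 30.8 CPM in controls and at 31.9, 26.5, 21.9 and 33.2 CPM in NOX4-deficient replicates 1 to 4. Replicates 2 and 3 of the NOX4-deficient mice lay below every control library, while replicates 1 and 4 lay within the control range. The means were 33.3 ± 2.16 and 28.4 ± 5.20 CPM (SD, n = 4 each), the lowest log2 fold change of the 10 genes (-0.23, 95% interval -0.52 to 0.06, edgeR adjusted p = 0.325). Without NOX4-deficient replicate 3 it was -0.12, and without control replicate 1 or NOX4-deficient replicate 2 *Dbt* had the lowest value instead (-0.29 and -0.22, beside -0.20 and -0.20 for *Bckdha*). *Bckdhb* had 19.5, 23.7, 20.01 and 24.9 CPM in controls and 24.6, 20.4, 17.3 and 23.2 CPM in NOX4-deficient muscle. Its groups covered nearly the same range, and the log2 fold change was -0.05 (95% interval -0.34 to 0.25, edgeR adjusted p = 0.883).

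*Dbt*, which encodes the transacylase core of BCKDH, varied most between control mice, at 22.5, 34.4, 30.7 and 43.2 CPM in replicates 1 to 4. All 4 NOX4-deficient libraries (29.5, 34.0, 23.1 and 31.6 CPM) fell within that range. The log2 fold change was -0.15 (95% interval -0.54 to 0.25, edgeR adjusted p = 0.682), and without control replicate 4 it was 0.02. *Dld*, the dehydrogenase that BCKDH shares with the pyruvate and 2-oxoglutarate dehydrogenases, was at 270.4 ± 22.2 CPM in controls and 256 ± 37.4 CPM in NOX4-deficient mice (SD, n = 4 each), and its log2 fold change was -0.08 (edgeR adjusted p = 0.744).

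The kinase transcript *Bckdk* stood at 171, 154, 164 and 131 CPM in controls and at 176, 126, 173 and 152 CPM in NOX4-deficient replicates 1 to 4. Replicates 1 and 3 of both genotypes (164 to 176 CPM) lay above replicates 2 and 4 of both genotypes (126 to 154 CPM). *Dbt* lay the opposite way, with 22.5 to 30.7 CPM in replicates 1 and 3 and 31.6 to 43.2 CPM in replicates 2 and 4. The part of whatever separates the replicate numbers in these values was not tested. Between genotypes the means of *Bckdk* were 155 ± 17.2 and 157 ± 23.2 CPM (SD, n = 4 each), a log2 fold change of 0.02 (95% interval -0.26 to 0.29, edgeR adjusted p = 0.958).

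*Ppm1k*, the phosphatase transcript, had 10.97, 15.0, 13.7 and 14.8 CPM in controls and 17.6, 16.5, 13.3 and 18.1 CPM in NOX4-deficient muscle. Replicates 1, 2 and 4 of the NOX4-deficient mice lay above every control library, and replicate 3 lay below 3 of the 4. With means of 13.6 ± 1.86 and 16.4 ± 2.17 CPM (SD, n = 4 each), it had the highest log2 fold change of the 10 genes (0.26, 95% interval -0.04 to 0.57, edgeR adjusted p = 0.289). Without NOX4-deficient replicate 3 the log2 fold change was 0.36 and the unadjusted edgeR p fell under 0.05, but the adjusted p was 0.159. Without control replicate 1 the log2 fold change was 0.17. Within each library the ratio of *Bckdk* to *Ppm1k* counts, which does not depend on library scaling, was 15.5, 10.2, 12.0 and 8.90 in control and 9.98, 7.65, 13.0 and 8.38 in NOX4-deficient muscle. The means of this ratio were 11.7 ± 2.88 and 9.76 ± 2.39 (SD, n = 4 each), and the groups overlapped. The ratio of *Bckdha* to *Bckdhb* counts was 1.54 ± 0.256 in control and 1.32 ± 0.0748 in NOX4-deficient muscle (SD, n = 4 each), also with overlap.

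The promoters of *Ppm1k* and *Bckdhb* are shown because they hold a match to the antioxidant response element, the motif bound by NFE2L2, the factor on which the study centers. Promoter sequences from RefSeq (GRCm38.p6, 250 bases before to 50 after the transcription start) were found for 9 of the 10 genes, all but *Dbt*, with 11 promoters in all since *Bcat2* and *Bckdhb* had 2 each. The element was searched as TGACNNNGC and the element of KLF factors as CACCC, on both strands. In all, 12.4% of the 32851 promoters in the table held the antioxidant response element and 57.5% the KLF element, and 14.0% and 59.8% of the 27025 genes held it in at least 1 promoter. Among the 11 promoters, 2 held the former (*Bckdhb* and *Ppm1k*) and 6 the latter (*Bcat2*, *Bckdhb*, *Bckdk*, *Ivd*, *Mccc1* and *Hibadh*). The other promoter of *Bckdhb* (chr9:83948531-83948780, plus strand, for its 250 bases before the start) and that of *Bcat2* held neither, and it is not known here which promoter the muscle used. The ERR element (TCAAGGTCA), the NRF1 element (GCGCATGCG), the PPAR direct repeat and the E-box (CACGTG) had 0 matches among the 11, and were in 0.423%, 1.75%, 0.0396% and 7.15% of all promoters. These are matches of letters, and neither of the genes shown here differed between genotypes beyond its error. The 250 bases before the start are given 5′ to 3′ on the gene's strand, with matches to either element in capitals. In *Ppm1k* (chr6:57535488-57535737, minus strand) the single match begins 160 bases before the start. In *Bckdhb* (chr9:83924887-83925136, plus strand) the antioxidant response element matches begin 250 and 122 bases, and the KLF element matches 214 and 188 bases, before the start.
Ppm1k: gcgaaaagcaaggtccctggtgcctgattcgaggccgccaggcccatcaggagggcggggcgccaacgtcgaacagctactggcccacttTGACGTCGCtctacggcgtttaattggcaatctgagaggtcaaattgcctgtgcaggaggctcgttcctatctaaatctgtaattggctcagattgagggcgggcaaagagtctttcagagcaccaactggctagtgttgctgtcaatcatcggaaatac
Bckdhb: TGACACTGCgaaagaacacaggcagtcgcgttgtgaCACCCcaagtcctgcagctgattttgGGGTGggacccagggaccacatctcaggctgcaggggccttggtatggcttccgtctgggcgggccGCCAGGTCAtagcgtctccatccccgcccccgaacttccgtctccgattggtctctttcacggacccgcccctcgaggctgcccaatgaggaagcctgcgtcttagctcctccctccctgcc

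Of the leucine route, *Ivd* encodes isovaleryl-CoA dehydrogenase, the step after BCKDH. It was among the steadiest of the 10 genes, at 132, 142, 139.8 and 137 CPM in controls and 157, 126, 133 and 143 CPM in NOX4-deficient muscle. Values of the NOX4-deficient mice lay on both sides of the control range, and the log2 fold change was 0.02 (95% interval -0.18 to 0.23, edgeR adjusted p = 0.917). *Mccc1*, the biotin-carrying subunit of methylcrotonyl-CoA carboxylase, had 29.5, 36.4, 34.0 and 29.4 CPM in controls and 31.2, 29.2, 28.4 and 35.6 CPM in NOX4-deficient muscle. The groups overlapped over most of their range (log2 fold change -0.06, 95% interval -0.31 to 0.19, edgeR adjusted p = 0.821). Its exons overlap 2 genes on the opposite strand, *B230207O21Rik* and *Mccc1os*, by 216 bases in all. The partner subunit *Mccc2* had a log2 fold change of 0.08 (95% interval -0.18 to 0.33, edgeR adjusted p = 0.749), and the ratio of *Mccc1* to *Mccc2* counts was 1.33 ± 0.123 in control and 1.23 ± 0.267 in NOX4-deficient muscle (SD, n = 4 each).

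*Hibch* and *Hibadh* encode successive enzymes of the valine route, the hydrolase that frees 3-hydroxyisobutyrate from CoA and the dehydrogenase that oxidizes it. *Hibch* stood at 37.8, 46.3, 39.7 and 41.6 CPM in controls and at 40.1, 33.9, 32.7 and 43.2 CPM in NOX4-deficient muscle. As for *Bckdha*, NOX4-deficient replicates 2 and 3 lay below every control library and replicates 1 and 4 within the control range. The log2 fold change was -0.14 (95% interval -0.40 to 0.11, edgeR adjusted p = 0.511), and -0.071 without NOX4-deficient replicate 3. *Hibadh* had 136, 148, 137 and 133 CPM in controls and 143, 113, 129 and 140.3 CPM in NOX4-deficient muscle, with a log2 fold change of -0.08 (95% interval -0.29 to 0.14, edgeR adjusted p = 0.697), and -0.011 without NOX4-deficient replicate 2. The ratio of *Hibadh* to *Hibch* counts was 3.36 ± 0.201 in control and 3.52 ± 0.315 in NOX4-deficient muscle (SD, n = 4 each).

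Levels were compared between genes as CPM per kb of exon, using the summed length of all annotated exons. *Hibadh* was highest in control muscle (75.9 ± 3.54 CPM per kb), followed by *Bckdk* (44.4 ± 4.92) and *Ivd* (37.6 ± 1.14), whose ranges overlapped (SD, n = 4 each). *Hibch* (22.2 ± 1.97), *Bcat2* (19.5 ± 2.35) and *Bckdha* (17.6 ± 1.14 CPM per kb) formed a middle group in which neighbors overlapped. *Bckdhb* (13.7 ± 1.67), *Mccc1* (13.2 ± 1.41) and *Dbt* (9.90 ± 2.61 CPM per kb) came next, again with overlap between neighbors. *Ppm1k* was lowest at 2.45 ± 0.334 CPM per kb, 4.04 times below *Dbt*, and did not overlap it. In NOX4-deficient muscle the highest 3 genes and the lowest gene were in the same places. There *Bcat2* (22.0 ± 3.66 CPM per kb) stood above *Hibch* (20.1 ± 2.68), with overlap. The shared subunit *Dld* was far more abundant than the subunits particular to BCKDH, at 106 ± 8.73 CPM per kb in control muscle.

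**Figure D2:**
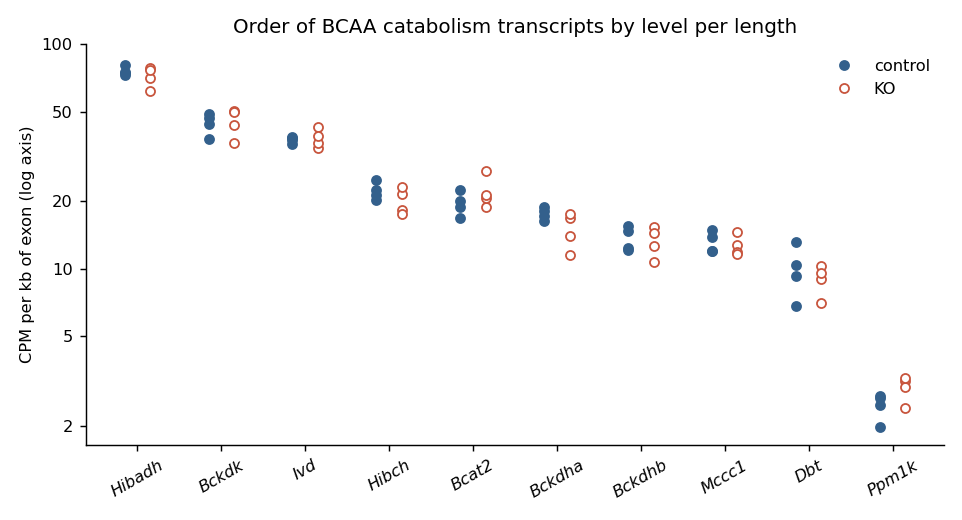
CPM per kb of exon (log axis) of the 10 genes, in the order of their control means, with 1 point per library of control and NOX4-deficient (KO) muscle. *Hibadh* is highest and *Ppm1k* lowest in both genotypes, with control means of 75.9 and 2.45 CPM per kb.

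The other genes of the pathway came from a list of 25, of which 24 were tested. Of the 6 genes of BCAA transport, 5 had a negative and 1 a positive log2 fold change, with a median of -0.25, and 0 had an edgeR adjusted p-value under 0.05 (1 at an unadjusted p-value under 0.05). Their summed level was 132 to 169 CPM in controls and 117 to 129 CPM in NOX4-deficient muscle, and this sum was not tested. Taken singly, the groups overlapped in all 6. *Slc25a44*, the mitochondrial BCAA carrier, was at 36.6 ± 2.63 CPM in controls and 33.5 ± 3.59 CPM in NOX4-deficient mice (SD, n = 4 each), a log2 fold change of -0.12 (edgeR adjusted p = 0.534). *Slc3a2*, which encodes the heavy chain that pairs with the plasma membrane transporter of the *Slc7a5* and *Slc7a8* family, had a log2 fold change of -0.31 (edgeR adjusted p = 0.198). Of the 18 genes tested from the rest of the degradation routes, 9 were negative and 9 positive, with a median of -0.003, and 0 were called (3 at an unadjusted edgeR p-value under 0.05).

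In that list 1 gene had an edgeR adjusted p-value under 0.05. *Mmut*, which encodes methylmalonyl-CoA mutase, the cobalamin-dependent enzyme that makes succinyl-CoA at the end of the valine and isoleucine routes, fell from 107, 123, 112 and 116 CPM in control to 76.2, 96.9, 75.4 and 89.8 CPM in NOX4-deficient replicates 1 to 4. The groups did not overlap. The means were 115 ± 6.60 and 84.6 ± 10.5 CPM (SD, n = 4 each), and the log2 fold change of -0.44 (SE 0.11, edgeR adjusted p = 0.0275) lay below the fold threshold for a call. The adjusted p was above 0.05, at 0.0643 to 0.081, when control replicate 2, 3 or 4 or NOX4-deficient replicate 1 or 3 was left out. Without NOX4-deficient replicate 2 *Mmut* was called (-0.51, edgeR adjusted p = 0.0172). At a log2 fold change of -0.44 its adjusted p was 0.00281 in DESeq2 and 0.00335 in pydeseq2. The genes before it in the propionate part of the route did not pass the test, with log2 fold changes of -0.02 for *Pcca*, -0.03 for *Pccb* and 0.02 for *Mcee*. Nor did *Mmaa* (-0.12) and *Mmab* (0.14), which serve its cobalamin cofactor. *Aldh6a1*, which makes propionyl-CoA in the valine route, had a log2 fold change of -0.31 (edgeR adjusted p = 0.178), and *Auh*, the methylglutaconyl-CoA hydratase of the leucine route, -0.23 (edgeR adjusted p = 0.173).

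**Figure D3:**
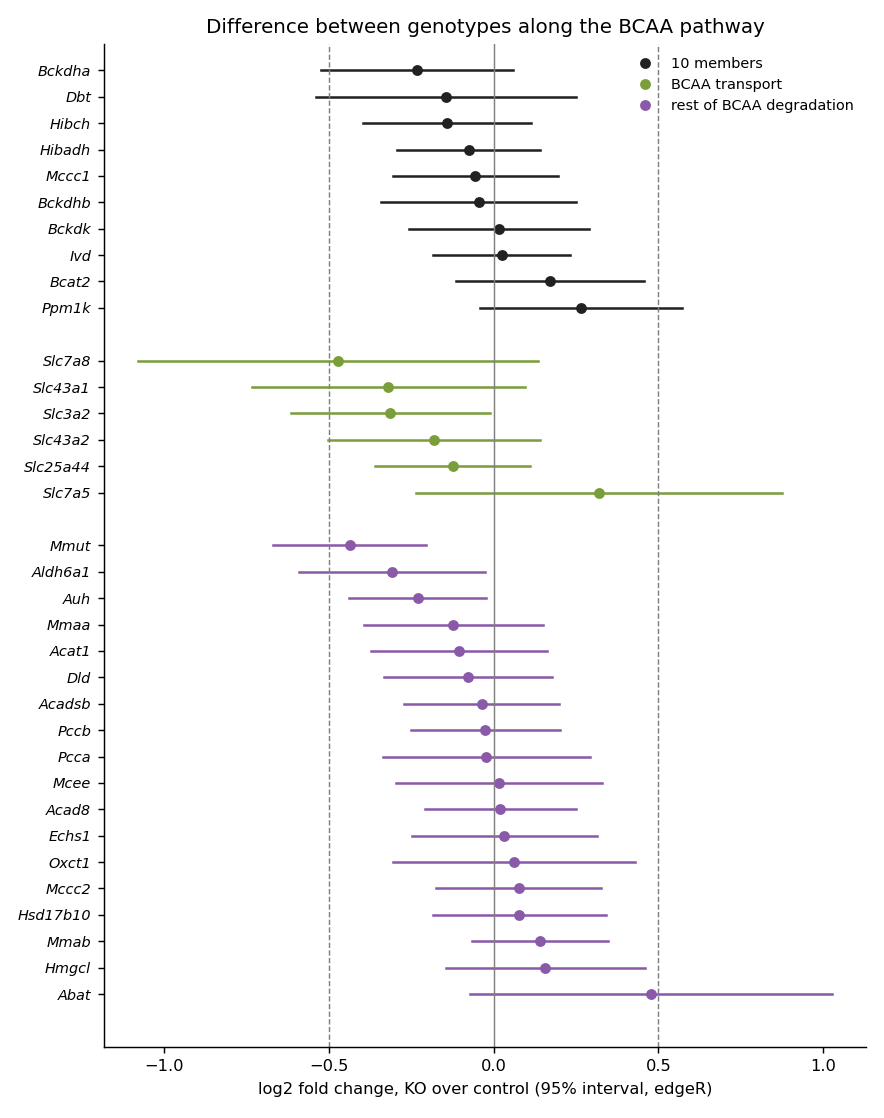
Log2 fold change (NOX4-deficient, KO, over control) with 95% intervals from edgeR for the 10 members, 6 genes of BCAA transport and 18 of the rest of BCAA degradation, with dashed lines at 0.5 in either direction. All 10 member intervals contain 0, and *Mmut*, at -0.44, is the gene with an adjusted p-value under 0.05.

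Of 6 genes listed as regulators of BCAA genes, 4 had a negative and 2 a positive log2 fold change. *Klf15*, a transcription factor known to raise BCAA-degrading enzymes in muscle, fell from 43.5, 42.4, 53.5 and 58.0 CPM in control to 31.8, 34.3, 20.8 and 33.0 CPM in NOX4-deficient replicates 1 to 4, without overlap. Its log2 fold change was -0.72 (SE 0.16, edgeR adjusted p = 0.0195), and it was -0.66 and -0.63 without control replicates 3 and 4, where the adjusted p-values were 0.0587 and 0.0578. Of the 6 regulators listed, *Klf15* was the 1 called. *Ppargc1a*, a coactivator of mitochondrial genes, was at 127, 161, 54.2 and 55.9 CPM in controls and 27.7, 33.0, 29.5 and 61.4 CPM in NOX4-deficient muscle, and did not pass the test (log2 fold change -1.39, edgeR adjusted p = 0.0855). The log2 fold changes of *Esrra* (0.25) and *Mlxipl* (0.20) were positive and those of *Nr3c1* (-0.24) and *Ppara* (-0.99) negative, with edgeR adjusted p-values from 0.359 to 0.438.

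The amino group that BCAT2 removes leaves muscle largely in glutamine and alanine, and 10 genes of amino nitrogen handling were listed for this. Of these, 2 were called lower and 0 higher by edgeR. *Slc38a2*, a plasma membrane transporter of glutamine, alanine and other small neutral amino acids, fell from 269, 290.1, 244 and 302 CPM to 74.8, 115, 119.9 and 173 CPM, a log2 fold change of -1.20 (SE 0.20, edgeR adjusted p = 0.00563). *Glul*, which encodes glutamine synthetase, fell from 606, 548, 899 and 1429 CPM to 205, 289.8, 384 and 421 CPM. The groups did not overlap in either gene. The log2 fold change of *Glul* was -1.42 (SE 0.33, edgeR adjusted p = 0.0316), and its call was lost when control replicate 3 (adjusted p = 0.0663) or NOX4-deficient replicate 1, 2 or 3 was left out (0.0755, 0.111 and 0.0589). Without control replicate 4, the highest library, its log2 fold change was -1.08. The transaminase genes *Got1* (-0.38, edgeR adjusted p = 0.0974) and *Gpt2* (-0.34, edgeR adjusted p = 0.193) and the glutamate dehydrogenase gene *Glud1* (-0.01, edgeR adjusted p = 0.960) did not pass the test. Of these, *Got1* had groups without overlap, at 286 to 371 CPM in control and 192 to 279 CPM in NOX4-deficient muscle.

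**Figure D4:**
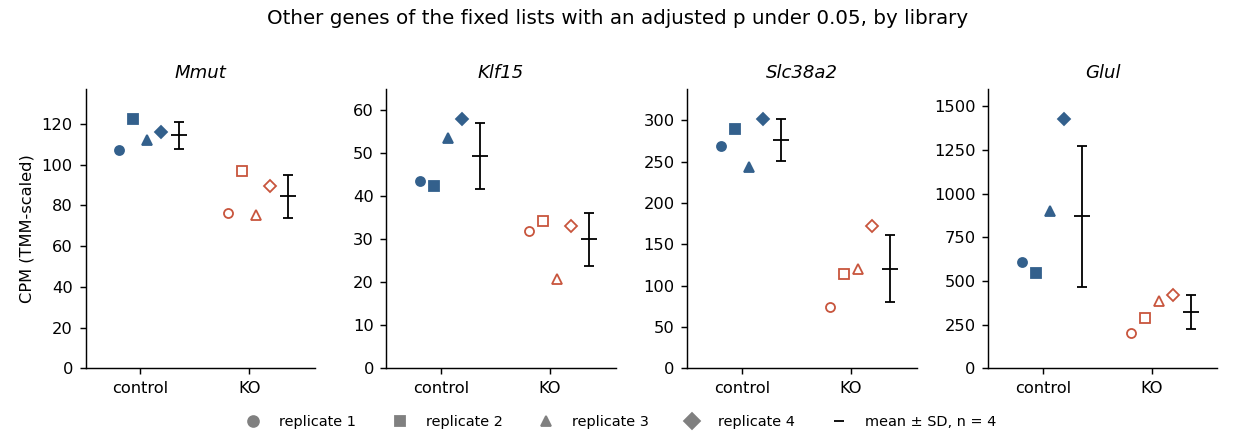
TMM-scaled CPM (vertical axes, each from 0) of *Mmut*, *Klf15*, *Slc38a2* and *Glul* in each library of control and NOX4-deficient (KO) muscle, with the mean ± SD of 4 mice beside the points. All 4 NOX4-deficient libraries lie below all 4 control libraries in each panel.

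Other lists were read beside the 10 genes. Of 15 citric acid cycle genes, which serve the same mitochondrial matrix, 0 were called (0 at an unadjusted edgeR p-value under 0.05), with a median log2 fold change of 0.02, and *Cs* was at 737 ± 56.2 and 747 ± 76.3 CPM (SD, n = 4 each). Of 10 fasting-responsive and glucocorticoid-responsive genes tested, 8 were called lower and 0 higher, with a summed level of 4609 to 6867 CPM in controls and 1453 to 2257 CPM in NOX4-deficient muscle. Slow-fiber markers were higher in 9 of 9 genes by sign with 0 called by edgeR (0 at an unadjusted p-value under 0.05), at a summed 334 to 726 CPM in controls and 429 to 1281 CPM in NOX4-deficient muscle. NOX4-deficient replicate 4 was the highest library for each of these 9 genes, and the groups overlapped in all of them. *Myh7* was at 184 CPM in that library, at 17.6 to 74.0 CPM in the others of its genotype and at 22.7 to 76.3 CPM in controls. Of the 5 blood markers 3 were found, and 2 were called higher (summed 47.6 to 52.7 and 72.3 to 159 CPM). Among the adipocyte (8 tested), leukocyte (7), endothelial (6), fibroblast and tendon (7) and denervation (6) markers 0 were called by edgeR, with 0, 2, 0, 3 and 3 at an unadjusted p-value under 0.05, and among 13 clock genes 2 were called lower and 3 higher. At that unadjusted p-value the leukocyte and denervation markers were lower and the fibroblast and tendon markers higher. By sign, 6 of 7 leukocyte and 3 of 6 denervation markers were negative, and 5 of 7 fibroblast and tendon markers positive. The summed level of the 10 members was 636 to 680 CPM in controls and 573 to 718 CPM in NOX4-deficient muscle, and the part of these other lists in it was not tested.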

How the data were processed

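The table deposited by the authors holds unnormalized whole-number counts for every gene in each mouse, from poly(A)-selected, unstranded paired-end libraries of total RNA run through the nf-core RNA-seq pipeline. STAR and GRCm39 are named in the submitters' processing notes, while the annotation and the counting settings are not given in the sources used here. All 8 columns matched a sample by title, and 0 were left unmatched. The members and gene lists were chosen with earlier results of these data known.

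The counts were scaled by TMM, filtered by filterByExpr and tested with estimateDisp, a robust glmQLFit and glmQLFTest (edgeR 4.0.16 in R 4.3.3), with genotype as the only term and Benjamini-Hochberg adjustment over 12725 rows. Thresholds (adjusted p under 0.05, absolute log2 fold change over 0.5) follow the study's methods. Standard errors are the log2 fold change over the square root of F, and 95% intervals use the fit's degrees of freedom. Replicates are separate mice, and all 8 libraries carry the same batch label. In all 12 within-group pairs the counts differed by more than Poisson error (13.3 to 56.6 times the expected chi-square). Genes named besides the members are those of the fixed lists with an adjusted p under 0.05, 6 that were always named (*Mccc2*, *Dld*, *Slc25a44*, *Bcat1*, *Klf15* and *Cs*), the deleted gene, and others of the same lists, chosen after their values were seen. Exon lengths and overlaps came from GENCODE M21 (GRCm38), so that no gene coordinates are given in the build of the counts.

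Alternatives were DESeq2 size factors, library size only, no filter, at least 10 counts in every library, a fit that was not robust, the replicate number as a block, each library left out, repeated names summed, other thresholds, DESeq2 1.42.0 and pydeseq2 0.5.4. A term separating odd from even replicates was added after the data were seen.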

Additional observations from a re-analysis of the deposited data

Results flagged for a closer look

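In 80 groups of 4 libraries (named genes, count ratios and summed lists), 3 had a library that stood apart from the other 3 by Dixon's 95% criterion, which compares its gap to the nearest library with the whole range. Chance gives about 4 of 80. None of the 10 members' CPM values was among them. The ratio of *Dbt* to *Dld* counts was 0.149 in NOX4-deficient replicate 2, beside 0.104 to 0.107 in the other libraries of that genotype. *Nox4* was at 1.74 CPM in NOX4-deficient replicate 1, beside 2.17 to 2.21 CPM in the others. The summed adult muscle fiber markers were at 177097 CPM in control replicate 3, beside 145058 to 147238 CPM in the other controls.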

How the results depend on the processing

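The count of members called was 0 in each direction under all alternatives run, and the adjusted p-values of the 10 members ranged from 0.159 to 0.993 over them. At an unadjusted p-value under 0.05, *Ppm1k* was the member that passed, in 2 alternatives (without NOX4-deficient replicate 3, and with the odd and even term). When single libraries were omitted, the log2 fold change of *Bckdk* ranged from -0.055 to 0.11, of *Bckdhb* from -0.11 to 0.056, of *Dbt* from -0.29 to 0.017, of *Ivd* from -0.024 to 0.0699, of *Mccc1* from -0.11 to 0.0047 and of *Cs* from -0.033 to 0.0844, so that their signs turned. Control replicate 4 turned *Bckdk*, *Bckdhb*, *Dbt* and *Cs*, control replicate 2 *Mccc1*, NOX4-deficient replicate 1 *Bckdk* and *Ivd*, and NOX4-deficient replicate 3 *Bckdk*, *Bckdhb* and *Cs*. The cause was not tested. The other members kept their sign, with *Bcat2* from 0.062 to 0.24, *Bckdha* from -0.30 to -0.12, *Ppm1k* from 0.17 to 0.36, *Hibch* from -0.20 to -0.071 and *Hibadh* from -0.11 to -0.011, as did *Mccc2* (0.0069 to 0.16), *Dld* (-0.15 to -0.0035) and *Slc25a44* (-0.20 to -0.074). The call of *Glul* was also lost with no filter on low counts (-1.43, adjusted p = 0.128) and with the odd and even term (-1.41, 0.065), at nearly the same log2 fold change, while its adjusted p was 0.000309 with the replicate block, 0.00577 in DESeq2 and 0.00486 in pydeseq2. *Slc38a2* kept its call in all 18 refits. In the BCAA pathway list 1 gene (*Mmut*) passed without a minimum fold change, and 0 to 1 were called with each library left out. Of all rows 784 were called, 252 at an adjusted p under 0.01, 267 at a log2 fold change over 1, and 499 to 712 with each library left out, the fewest without control replicate 4. With the replicate number as a block 933 rows and 0 members were called. Deviations of same-numbered samples correlated at 0.0294 to 0.208, and samples of replicate 1 alone correlated best with their own number, so the numbers were not taken to pair the mice.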

Other observations

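The coefficient of variation between mice was larger in NOX4-deficient than in control muscle for 7 of the 10 members, beside 60.0% of all rows tested, and this was not tested. It was 6.49% in control and 18.3% in NOX4-deficient mice for *Bckdha*, and 3.03% and 9.49% for *Ivd*. *Dbt* had the opposite order, at 26.3% in control and 15.8% in NOX4-deficient mice. The median over the 10 members was 10.9% in control and 14.0% in NOX4-deficient muscle, and over all rows tested 13.9% and 16.7%.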
